A study of Mus musculus with 4 samples.

Results

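D2 neurons of BACHD mice, a transgenic model of Huntington's disease, were compared with D1 neurons of BACHD mice, and the gap between the cell types was then set beside the same gap in wild-type (WT) mice. The genes described are those with a level of at least 5 CPM in either BACHD library, where CPM is the estimated count scaled to a common library size with TMM factors. They number 11018 of the 37620 gene identifiers in the deposited tables: 10500 reached that level in both BACHD libraries, 329 in the D1 BACHD library only and 189 in the D2 BACHD library only. Ttc41 lay just inside the level, at 4.17 CPM in D1 BACHD and 5.013 in D2 BACHD, and Adssl1 just outside, at 4.999 and 4.08 CPM.

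RNA was sequenced from striatal neurons that were sorted for EGFP from male mice aged 5 to 6 months on the FVB/NJ background. BACHD mice, Tg(Htt*97Q)IXwy in the labels, carry a bacterial artificial chromosome (BAC) with full-length mutant huntingtin and 97 glutamines under the huntingtin regulatory sequence of that BAC. The WT littermates lack it. D1 neurons came from crosses to a Drd1-EGFP BAC line and D2 neurons from crosses to a Drd2-EGFP BAC line, in both genotypes, so cell type and reporter line cannot be told apart. Each of the 4 groups, D1 and D2 neurons of WT and of BACHD mice, had 1 library, made from cells of 4 animals with 150000 cells per animal. No group had a second pool, so the spread between pools was not measured.

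Medium spiny neurons are the output cells of the striatum. Those of the direct pathway carry the dopamine receptor D1 and release GABA with substance P and dynorphin, whereas those of the indirect pathway carry the dopamine receptor D2 and an adenosine receptor and release GABA with enkephalin. D1 receptors raise cyclic AMP and D2 receptors lower it, and indirect-pathway neurons are known as the more vulnerable cells in early Huntington's disease.

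The libraries held 41325647 to 44523622 estimated counts. A count of 3, taken as the floor, was 0.0674 to 0.0726 CPM. Mouse Htt stood at 158.9 CPM in D1 BACHD and 148.6 CPM in D2 BACHD, and at 158.8 and 159.5 CPM in the WT libraries. The transgene holds the human gene, so the genotype labels cannot be checked with these counts. The D1 BACHD library stood apart by markers of cortical glutamatergic neurons: all 9 listed genes were highest there, and their summed level was 154.9 CPM in D1 BACHD and 32.6 in D1 WT, but 5.69 in D2 BACHD and 3.45 in D2 WT. Summed markers of GABAergic interneurons were 32.8, 24.7, 7.58 and 7.43 CPM in the same order. Cholinergic markers never summed to more than 1.7 CPM, and astrocyte markers summed to between 420.9 and 462.4 CPM in the 4 libraries. In sorted pools, fewer cells of a type and less RNA per cell cannot be told apart.

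Most genes stood at nearly the same level in D2 and D1 neurons of BACHD mice. The log2 D2/D1 ratio had a median of 0.004 and lay within 1.5-fold for 93% of the genes, against -0.002 and 92.8% in WT. With 1 library a side there is no test of the BACHD gap, so a rule of size was used: a ratio of at least 2 whose exact binomial 95% counting interval excluded 1, with counts under 3 set to 3. For the 518 genes that reached 5 CPM in 1 BACHD library only, the filter itself favoured a gap. In BACHD, 370 genes (3.36%) passed it, 110 higher in D2 (0.998%) and 260 higher in D1 (2.36%). On the same genes in WT, 363 passed (3.29%), 132 higher in D2 (1.2%) and 231 higher in D1 (2.1%). The intervals cover counting error only, and 125 of the 370 genes had under 100 counts in the lower library.

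The mutant mice kept most of the pathway differences. Of the genes higher in D2 neurons in BACHD, 92 were also past the rule in WT, which is 83.6% of the BACHD list and 69.7% of the WT list. Of those higher in D1 neurons, 200 were past it in both genotypes, 76.9% of the BACHD list and 86.6% of the WT list. The 2 gaps share no library, and over the 11018 genes their log2 ratios correlated with Pearson's r of 0.912 and Spearman's rho of 0.619, both descriptions across genes.

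A gap was called grown or shrunk when it was at least 1.5-fold larger or smaller in BACHD than in WT and the 95% counting interval of that change excluded 0 on the log2 scale. By this rule 227 gaps remained (2.06%), 77 of them higher in D2 (0.699%) and 150 higher in D1 (1.36%). A further 89 had grown (0.808%), 14 of genes higher in D2 (0.127%) and 75 of genes higher in D1 (0.681%). A further 30 had shrunk (0.272%), 22 of genes higher in D2 (0.2%) and 8 of genes higher in D1 (0.0726%). The filter on the BACHD libraries takes in genes that are high in BACHD alone and leaves out those high in WT alone, so the grown and shrunken counts cannot be set against each other. With a mean of at least 5 CPM over all 4 libraries 45 gaps had grown and 25 had shrunk, and with no filter 299 and 220. None was reversed (0%), and 95 other genes passed the size rule in 1 genotype with a smaller change of the gap.

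**Figure D1:**
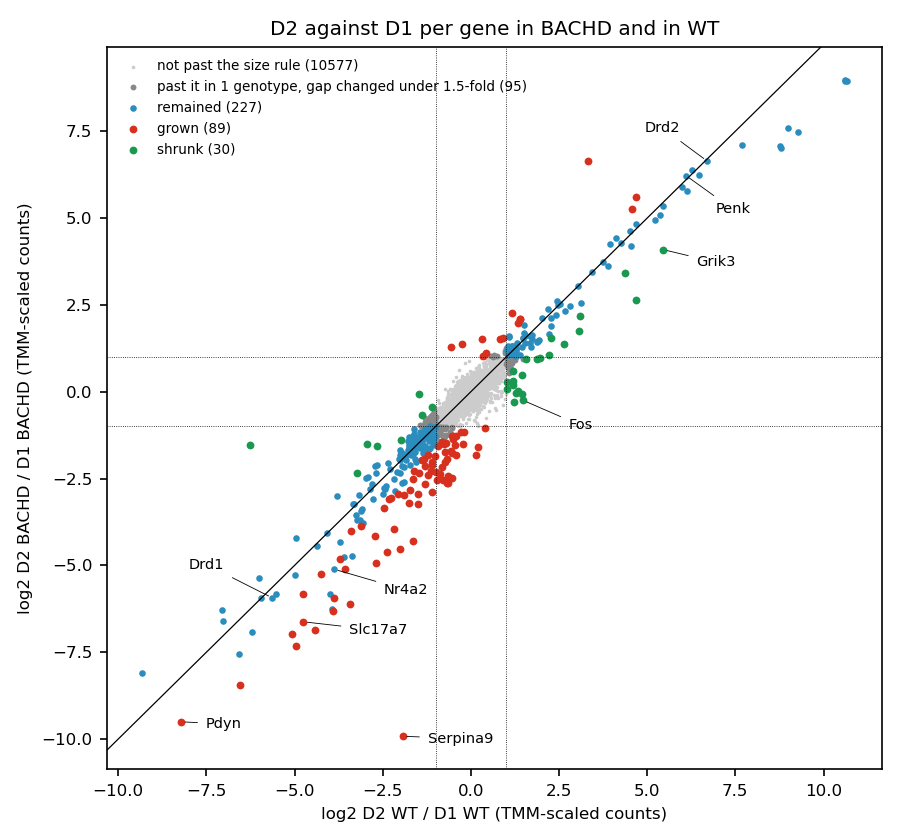
Each point is 1 of 11018 genes, with the log2 D2/D1 ratio in WT on the x axis and in BACHD on the y axis; dotted lines mark a ratio of 2 and the solid line marks equal gaps. The 227 remaining genes follow the line of equal gaps, most of the 89 grown genes lie below it on the D1 side, and Serpina9 lies farthest from it.

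The cell-type difference over both genotypes could be tested. edgeR's quasi-likelihood test on all 4 libraries, with terms for genotype and cell type, called 2274 of 13400 genes at an adjusted p under 0.05 (17%), 913 higher in D2 (6.81%) and 1361 higher in D1 (10.2%). With total-count scaling that split was 735 against 2205. The fit has 1 residual degree of freedom, which is the change of the gap with genotype, so it tests the part of the gap that the genotypes share. Without the D1 BACHD library, in a fit on cell type alone, 590 and 772 genes were called. Of the genes past the size rule in BACHD, 107 of 110 higher in D2 and 255 of 260 higher in D1 were called the same way. The libraries that selected these genes are also part of the fit, so this overlap is no independent check.

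Direct-pathway markers kept their direction in the mutant mice. Of the 13 listed genes, all described, 12 passed the size rule as higher in D1 in BACHD and the same number in WT, and edgeR called all 13 higher in D1. Over all genes described 2.36% passed as higher in D1 in BACHD and 2.1% in WT, and edgeR called 10.2% of all genes tested higher in D1. The median log2 D2/D1 of the markers was -5.28 in BACHD and -4.76 in WT, beside 0.00 in either genotype over all genes described. These markers were listed with their results known, so the counts describe the sort rather than test it.

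Drd1, the D1 receptor (ENSMUSG00000021478, chromosome 13), stood at 816.4 CPM in D1 BACHD and 13.3 in D2 BACHD, and at 914.0 and 18.4 CPM in WT. Either D1 library was far above either D2 library. The gap was 61.2-fold in BACHD (log2 -5.94, 95% counting interval -6.06 to -5.82) and 49.6-fold in WT. Tac1, which encodes the substance P precursor, stood at 771.3 and 65.8 CPM in D1 and D2 BACHD, and at 870.7 and 90.7 CPM in WT. Its gap of 11.7-fold in BACHD and 9.6-fold in WT remained. Chrm4, the M4 muscarinic receptor that opposes cyclic AMP production, stood at 386.2 and 9.93 CPM in BACHD and 413.5 and 13.0 CPM in WT, and its gap also remained.

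The gap of 3 direct-pathway markers grew, each through low D2 counts. Pdyn, the dynorphin precursor, stood at 321.5 CPM in D1 BACHD and 0.443 in D2 BACHD, and at 261.6 and 0.874 CPM in WT. The D2 values rest on 19 and 38 counts, and the gap was 725.7-fold in BACHD and 299.2-fold in WT (log2 change of the gap -1.28, interval -2.07 to -0.48). Ebf1, a transcription factor of developing direct-pathway neurons, stood at 32.2 and 0.0933 CPM in BACHD and 34.2 and 0.368 in WT, with 4 and 16 counts in the D2 libraries. Zfp521, a zinc-finger protein, stood at 29.0 and 0.513 CPM in BACHD and 30.5 and 1.13 in WT. For Ebf1 and Zfp521 the D1 libraries lay close together and the D2 BACHD library was below D2 WT.

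Isl1, a homeodomain factor of the direct pathway, stood at 63.8 and 0.233 CPM in BACHD and at 58.7 and 0.092 in WT, and its counts of 10 and 4 in the D2 libraries left the change of the gap inside its counting interval (-0.45 to 2.90). Reln, an extracellular guidance protein, was the weakest marker past the rule, 2.06-fold higher in D1 in BACHD and 2.2-fold in WT. Plxnd1, a semaphorin receptor, stood at 135.5 and 113.9 CPM in BACHD and did not pass the rule. Sfxn1, a mitochondrial serine carrier, lies within 250 kb of Drd1 in GENCODE M21 and stood at 458.0 and 21 CPM in BACHD. Whether the reporter BAC holds a copy of it was not tested.

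**Figure D2:**
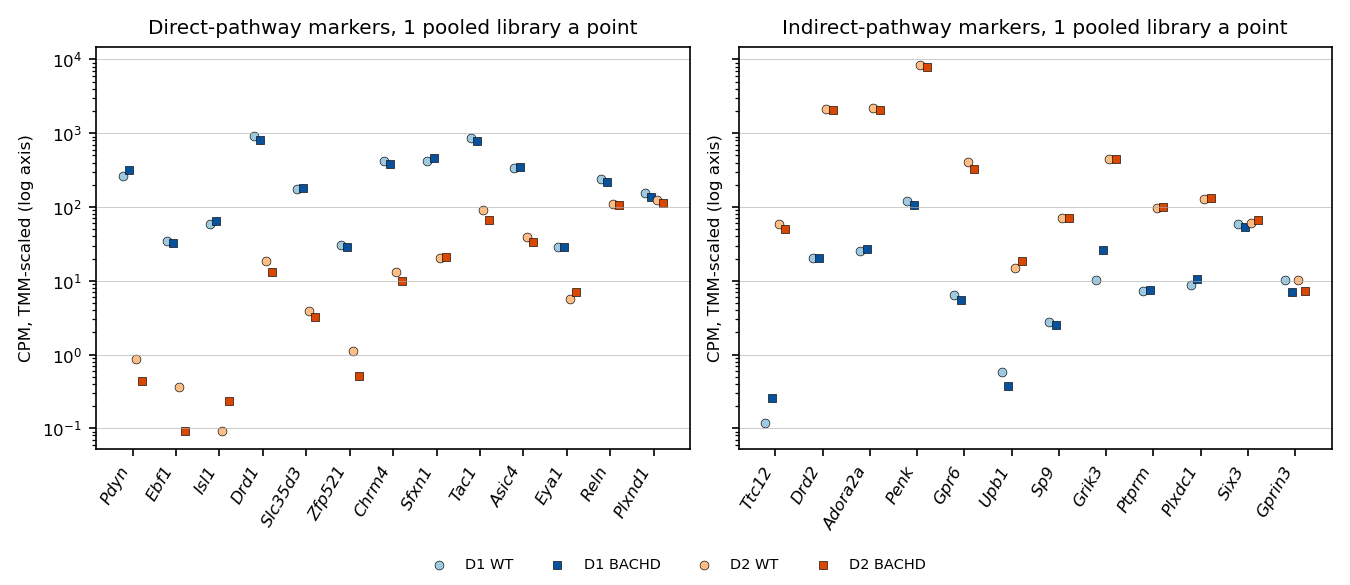
CPM (log axis) of the 13 direct-pathway and 12 indirect-pathway markers, 1 point per pooled library and no error bars because each group is 1 library. For 22 of the 25 markers the D1 and D2 libraries are apart in both genotypes, and Plxnd1, Six3 and Gprin3 are the exceptions.

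Indirect-pathway markers likewise kept their direction. Of 12 described genes, 10 passed the rule as higher in D2 in BACHD and 10 in WT, and edgeR called 10 higher in D2. Over all genes described 0.998% passed as higher in D2 in BACHD and 1.2% in WT, and edgeR called 6.81% of all genes tested higher in D2. The median log2 D2/D1 of the markers was 5.21 in BACHD and 5.07 in WT. This list too was made with its results known, so the counts describe the sort rather than test it.

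Drd2, the D2 receptor (ENSMUSG00000032259, chromosome 9), stood at 2033 CPM in D2 BACHD and 20.4 in D1 BACHD, and at 2095 and 20.2 CPM in WT. Both D2 libraries were about equally far above both D1 libraries: the gap was 99.9-fold in BACHD (log2 6.64, interval 6.55 to 6.74) and 103.8-fold in WT, and the change of the gap had an interval of -0.19 to 0.08. Penk, the enkephalin precursor (ENSMUSG00000045573, chromosome 4), stood at 7863 and 105.5 CPM in D2 and D1 BACHD, and at 8318 and 121.1 CPM in WT. Adora2a, the adenosine receptor of the indirect pathway, stood at 2058 and 27.2 CPM in BACHD and at 2208 and 25.1 CPM in WT. Either D2 library was far above either D1 library for both genes. The gap was 74.5-fold for Penk and 75.6-fold for Adora2a in BACHD, and both remained. Compared per gene length, Penk was the most abundant of the indirect-pathway markers in D2 BACHD at 5589 FPKM, against 794.4 for Adora2a and 790.3 for Drd2, and Tac1 led the direct-pathway markers in D1 BACHD at 782.5 FPKM, against 236.5 for Drd1 and 138.4 for Pdyn.

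Grik3, a kainate-type glutamate receptor subunit, was the indirect-pathway marker whose gap shrank. It stood at 448.6 CPM in D2 BACHD and 26.3 in D1 BACHD, and at 442.0 and 10.1 CPM in WT. The D2 libraries were nearly equal and the D1 BACHD library stood above D1 WT, so the gap was 17.0-fold in BACHD and 43.7-fold in WT (log2 change of the gap -1.36, interval -1.52 to -1.20). The D1 BACHD library also held more of the cortical neuron markers, and their part in this difference was not tested. Upb1, an enzyme of pyrimidine breakdown, had a grown gap on 16 counts in D1 BACHD and 25 in D1 WT, and the interval of its change reached 0.00. Gpr6, an orphan receptor coupled to cyclic AMP, stood at 324.1 and 5.45 CPM in BACHD and 405.9 and 6.41 CPM in WT, and its gap of 59.5-fold remained. Six3 and Gprin3 stood at log2 0.28 and 0.07 in BACHD and did not pass the rule. Ttc12 and Ankk1 lie within 250 kb of Drd2 in GENCODE M21 and stood at 50.0 and 26.1 CPM in D2 BACHD against 0.261 and 0.19 CPM in D1 BACHD, whereas Ncam1, on the far side of Ttc12, stood at 286.5 and 309.4 CPM. Whether the Drd2 reporter BAC holds copies of these genes was not tested.

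Of the genes shared by all medium spiny neurons, 0 of 24 passed the rule in either genotype, a count near the 3.36% over all genes, with a median log2 D2/D1 of 0.13 in BACHD and 0.14 in WT. edgeR called 8 of them higher in D2 and 1 higher in D1, which is 37.5% of the list beside 17% of all genes tested, all at differences under 2-fold.

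Neuropeptide precursors held gaps on the D2 and on the D1 side. Of 12 described, 2 passed the rule as higher in D2 in BACHD and 6 as higher in D1, against 2 and 5 in WT. Among all genes described the shares were 0.998% and 2.36% in BACHD, and 1.2% and 2.1% in WT. Besides Penk, the D2 side held Nts, the neurotensin precursor, at 7.27 CPM in D2 BACHD and 0.237 in D1 BACHD, and at 23.8 and 0.632 CPM in WT. Both BACHD libraries stood below their WT partners for Nts, so the gap itself remained, at 30.7-fold against 37.6-fold. On the D1 side, Cck, the cholecystokinin precursor, had a gap that grew from 4.07-fold in WT to 22.9-fold in BACHD. It stood at 14.9 CPM in D1 BACHD and 0.653 in D2 BACHD, against 4.49 and 1.1 CPM in WT, so most of the difference lay in the D1 BACHD library, which also held more of the cortical markers. Sst and Npy, which mark a class of striatal interneurons, stood at 10.3 and 8.60 CPM in D1 BACHD against 1.10 and 0.513 in D2 BACHD, and both gaps remained.

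Receptors for monoamines, acetylcholine and adenosine gave 4 genes higher in D2 and 3 higher in D1 of 13 described, in BACHD and in WT alike, and 6 of these gaps remained. All genes described gave 0.998% and 2.36% in BACHD. Htr4, Adra2c and Chrm3 were picked after their values were seen. Htr4, a serotonin receptor that raises cyclic AMP, stood at 21.5 and 3.67 CPM in D2 and D1 BACHD and at 22 and 2.53 CPM in WT. Adra2c, an adrenergic receptor that lowers cyclic AMP, was on the D1 side, at 150.2 CPM in D1 BACHD and 42.4 in D2 BACHD. Chrm3, the M3 muscarinic receptor, had the gap that shrank: it stood at 6.67 CPM in D2 BACHD and 1.07 in D1 BACHD, against 7.18 and 0.281 CPM in WT, so again the D1 BACHD library was the one that stood higher than its WT partner.

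Among peptide, opioid, cannabinoid and orphan receptors, 4 of 14 passed as higher in D2 and 1 as higher in D1 in BACHD, the same counts as in WT. For all genes described the BACHD shares were 0.998% and 2.36%. Oprd1, the delta opioid receptor that binds enkephalin, stood at 18.2 CPM in D2 BACHD and 0.995 in D1 BACHD, an 18.3-fold gap that remained. Gpr149, an orphan receptor, had a gap that grew from 2.55-fold in WT to 3.97-fold in BACHD, with 34.2 CPM in D2 BACHD and 8.60 in D1 BACHD against 30.2 and 11.9 CPM in WT. Sstr2, a somatostatin receptor, was on the D1 side with 32.1 and 2.01 CPM in D1 and D2 BACHD and 20.4 and 1.91 CPM in WT. Its gap had grown to 16-fold through the D1 BACHD library. Crhr1, a receptor for corticotropin-releasing hormone picked after its values were seen, was 2.4-fold higher in D2 in BACHD and remained.

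The intracellular arm of dopamine signalling held gaps on both sides. Of 23 G protein and cyclic AMP genes, 1 passed as higher in D2 and 2 as higher in D1 in BACHD, beside 0.998% and 2.36% of all genes described, and the list's median log2 D2/D1 was 0.02. edgeR called 52.2% of the list, beside 17% of all genes tested. Gnai1, an inhibitory G protein alpha subunit, stood at 50.9 CPM in D1 BACHD and 16.3 in D2 BACHD and at 50.6 and 15.9 CPM in WT, and its gap remained. Adcy2, an adenylyl cyclase, stood at 13.1 and 2.68 CPM in D1 and D2 BACHD and at 7.39 and 2.42 CPM in WT, and its gap grew to 4.89-fold. Gnas, the stimulatory alpha subunit, passed on the D2 side with a shrunken gap, but it overlaps Gm20721 on chromosome 2, and how reads were shared between these 2 genes is uncertain. Rgs16 and Rgs12, regulators that switch off G proteins, lay on opposite sides, 2.13-fold higher in D2 and 2.39-fold higher in D1 in BACHD, and both remained. Of 12 phosphodiesterases, which break down cyclic nucleotides, Pde1a alone passed in BACHD, at 13.0 CPM in D1 BACHD and 1.38 in D2 BACHD against 4.98 and 1.75 CPM in WT.

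**Figure D3:**
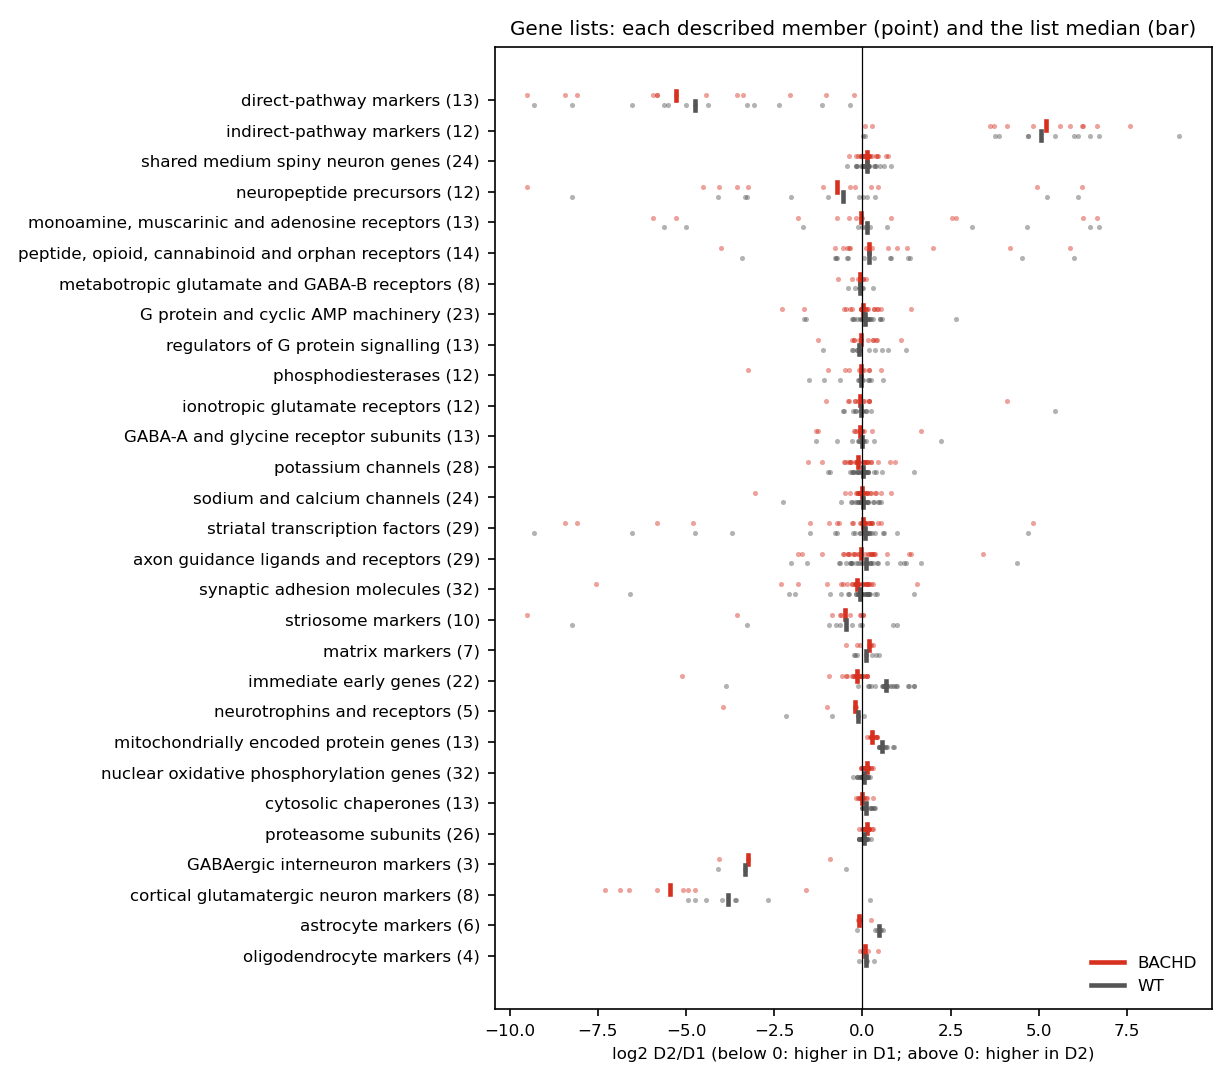
Log2 D2/D1 of every described member (points) and the median (bars) of each gene list with 3 or more described genes, in BACHD (red) and WT (grey), with the number of genes in brackets. The 2 pathway marker lists and the cortical list lie far from 0, most signalling lists straddle 0, and the immediate early genes lie above 0 in WT (median 0.65) and near it in BACHD (median -0.15).

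Few ion channels and fast transmitter receptors passed the size rule in BACHD. Of the channels, 2 of 28 for potassium and 1 of 24 for sodium and calcium did, counts near the 3.36% over all genes described. Of the receptors, 3 of 13 GABA-A and glycine receptor subunits and 2 of 12 ionotropic glutamate receptors passed. Kcna2, a delayed rectifier subunit, stood at 6.99 CPM in D1 BACHD and 2.38 in D2 BACHD and at 7.60 and 3.98 CPM in WT, a gap that grew to 2.94-fold through the D2 BACHD library. Kcnj3, an inward rectifier that Gi-coupled receptors open, was 2.23-fold higher in D1 in BACHD and 1.97-fold in WT. Cacna1g, a T-type calcium channel, was the sodium or calcium channel past the rule. It stood at 22 and 2.63 CPM in D1 and D2 BACHD against 8.84 and 1.84 CPM in WT. Its gap grew through the D1 BACHD library, which also held more of the cortical markers, and their part in it was not tested. Gabra3 and Gabra5, alternative alpha subunits of the GABA-A receptor, divided between the pathways: Gabra3 was 3.15-fold higher in D2 and Gabra5 2.5-fold higher in D1 in BACHD, and both gaps remained. Glra2, a glycine receptor subunit, passed in BACHD, at 2.40-fold higher in D1, and stood at 1.66-fold in WT.

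Transcription factors of the striatum split 1 to 5 between D2 and D1 in both genotypes, of 29 described. The shares over all genes described were 0.998% and 2.36% in BACHD, and 1.2% and 2.1% in WT. Sp9, a factor of indirect-pathway neurons, stood at 71.0 CPM in D2 BACHD and 2.51 in D1 BACHD, and at 70.7 and 2.76 CPM in WT, so the 2 genotypes were nearly superimposed. Foxp2, a forkhead factor picked after its values were seen, stood at 179.5 and 64.3 CPM in D1 and D2 BACHD, 2.79-fold against 2.78-fold in WT. Ikzf1, also picked after its values were seen (28.1-fold higher in D1 in BACHD, 13.1-fold in WT) joined Ebf1 and Zfp521 among the grown gaps, on 12 counts in D2 BACHD and 27 in D2 WT.

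Adhesion and guidance genes carried gaps on both sides. Nrxn2, a presynaptic neurexin, stood at 206.6 CPM in D2 BACHD and 70.6 in D1 BACHD, and at 208.1 and 75.2 CPM in WT. Its gap of 2.93-fold in BACHD and 2.77-fold in WT remained. Lingo2, a leucine-rich adhesion protein, was 185.9-fold higher in D1 in BACHD on 4 counts in D2 BACHD, and its change of the gap lay within its counting interval. Of 32 adhesion genes, 1 passed as higher in D2 and 4 as higher in D1 in BACHD. Of 29 guidance genes, 3 passed on each side in BACHD, against 5 and 2 in WT. Over all genes described, 0.998% passed as higher in D2 and 2.36% as higher in D1 in BACHD, against 1.2% and 2.1% in WT. Unc5d, a netrin receptor, was 10.7-fold higher in D2 in BACHD and 20.7-fold in WT, a gap that shrank through the D1 BACHD library (1.47 against 0.749 CPM). Robo3, a receptor of the Roundabout family, stood at 228.1 CPM in D2 BACHD and 78.3 in D1 BACHD, and at 154.2 and 81.3 CPM in WT. Its gap grew from 1.90-fold to 2.91-fold, and here the D2 BACHD library was the one that stood higher.

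The grown gaps lay mostly on the D1 side, and mostly in the D1 libraries. Of the 75 grown gaps of genes higher in D1, 61 had the larger move between the D1 libraries, with a median log2 D1 BACHD/D1 WT of 1.23 and a median log2 D2 BACHD/D2 WT of -0.11. Cortical glutamatergic markers made up 6 of the 75, which is 6 of the 8 described, beside 0.681% of all genes described. All 8 cortical markers described reached 5 CPM in D1 BACHD only, so the filter favoured a gap on the D1 side in BACHD. Summed over all 9 listed markers without the filter, levels were 154.9 CPM in D1 BACHD and 5.69 in D2 BACHD. All 8 were past the rule as higher in D1 in BACHD and 7 in WT, beside 2.36% and 2.1% of all genes described. Their median log2 D2/D1 was -5.46 in BACHD and -3.80 in WT, in which counts under 3 stand at 3. Slc17a7, the vesicular glutamate transporter of cortical neurons, stood at 85.1 CPM in D1 BACHD and 0.863 in D2 BACHD, and at 18 and 0.667 CPM in WT. Tbr1, a transcription factor of cortical projection neurons, stood at 11.4 and 0.373 CPM in BACHD and at 2.67 and 0.414 CPM in WT. Neurod6, another cortical factor, rests on 1 count in D2 BACHD and 2 in D2 WT, with 469 and 91 counts in the D1 libraries. For these genes both D2 libraries were low and the D1 BACHD library was well above D1 WT. The part of the cortical markers in the other grown gaps was not tested. The D1 WT library, which held fewer of these markers, was also used in place of D1 BACHD, an alternative chosen after seeing the data: D2 BACHD against D1 WT gave 131 genes higher in D2 and 229 higher in D1, and shared 95 of the 110 and 203 of the 260 genes.

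Serpina9, a serine protease inhibitor (ENSMUSG00000058260, chromosome 12), had the largest change of the gap, and it lay in the D2 libraries. It stood at 67.8 CPM in D1 BACHD and 0.0466 in D2 BACHD, against 64.6 and 16.9 CPM in WT. These are 2861, 2, 2760 and 734 counts, so the D2 BACHD library alone was near 0. With its 2 counts set to 3 the gap was 969.0-fold in BACHD (log2 -9.92, interval -13.55 to -8.65) and 3.82-fold in WT. edgeR's cell-type term was log2 -3.36 (quasi-likelihood test, adjusted p = 0.025). An SE of 0.80 was back-calculated from the F statistic of that test.

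On the D2 side, 14 gaps grew, and 11 of them had the larger move between the D1 libraries. Nt5e, the ecto-enzyme that makes adenosine from AMP, stood at 50.4 CPM in D2 BACHD and 1.33 in D1 BACHD, and at 42.0 and 1.75 CPM in WT, a gap of 38.0-fold against 24-fold. Mid1, a ubiquitin ligase on microtubules, stood at 62.0 and 14.5 CPM in BACHD and at 50.4 and 19.3 CPM in WT. For both genes the D2 library was higher and the D1 library lower in BACHD than in WT. The lower D1 level of Nt5e rests on 56 counts in BACHD and 75 in WT. It lay within counting error (log2 D1 BACHD/D1 WT -0.40, interval -0.93 to 0.12).

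**Figure D4:**
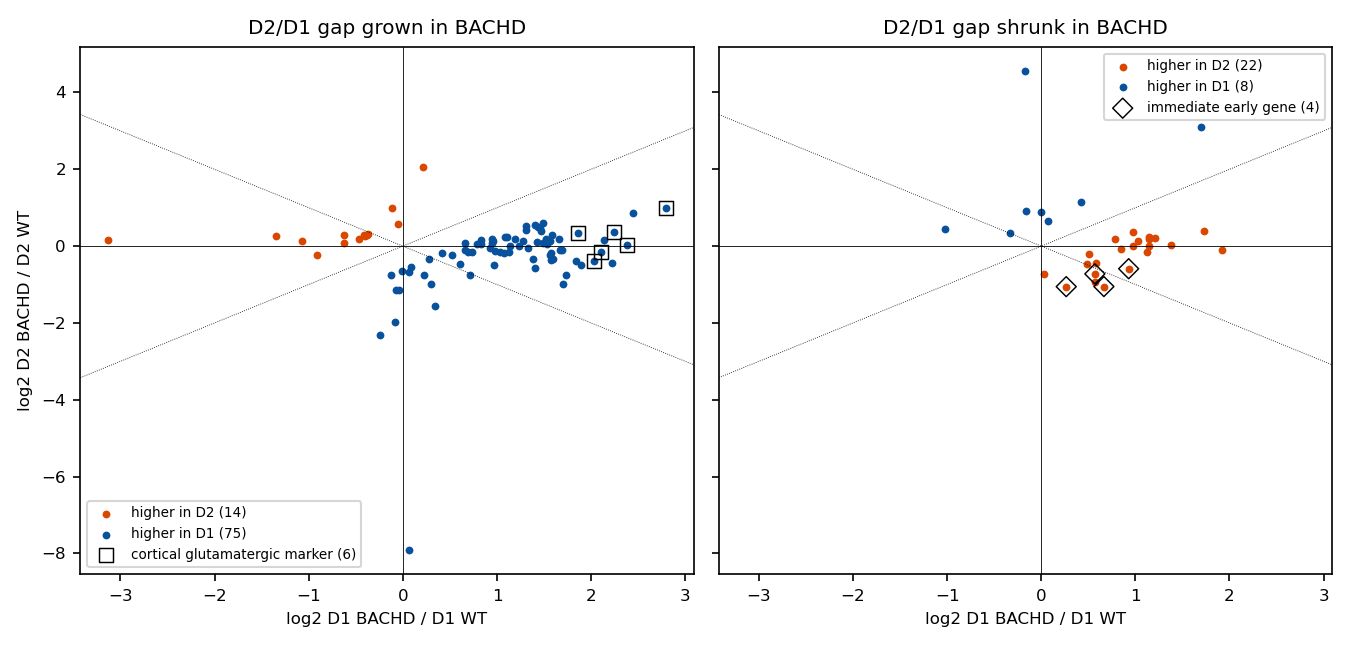
For each grown gap (left, 89 genes) and shrunken gap (right, 30 genes), the log2 BACHD/WT ratio within D1 neurons (x axis) and within D2 neurons (y axis); dotted diagonals mark equal moves. Most grown gaps of genes higher in D1 lie far to the right, as do the 6 cortical markers, and the 4 immediate early genes among the shrunken gaps lie to the right and below 0.

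Only 8 gaps of genes higher in D1 shrank, and for 7 of them the larger move was between the D2 libraries, with a median log2 D2 BACHD/D2 WT of 0.91. Cxcl14, a chemokine, stood at 48.3 CPM in D1 BACHD and 30.5 in D2 BACHD, and at 36.1 and 13.7 CPM in WT, so the D2 BACHD library was more than its counting error above D2 WT. Asb2, a subunit of a ubiquitin ligase, stood at 12.7 and 4.27 CPM in BACHD and 14.2 and 2.25 CPM in WT. Ahcy, which breaks down S-adenosylhomocysteine, was the exception in which the D1 library moved more: 10 CPM in D1 BACHD and 20.3 in D1 WT. Gm8822, on the X chromosome, is annotated as a pseudogene, so its assignment of reads is uncertain.

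Immediate early genes, transcribed within minutes of neuronal activity or handling, stood higher in D2 neurons in WT and at similar levels in both cell types in BACHD. Of 24 listed, 22 were described. In WT 4 of them passed the rule as higher in D2 (Fos, Arc, Egr2 and Btg2) and in BACHD 0 did, and all 4 gaps were called shrunken. Over all genes described, 1.2% passed as higher in D2 in WT and 0.998% in BACHD, so the 0 in BACHD is near that share. Shrunken gaps of genes higher in D2 made up 0.2% of all genes described. The list's median log2 D2/D1 was 0.65 in WT and -0.15 in BACHD, with 20 of its genes above 0 in WT and 5 in BACHD. The D2/D1 ratio was lower in BACHD for 22 of 22 genes, and for 21 the counting interval of the change lay below 0, against 1848 of the 11018 genes described. Both sides moved: 21 of 22 were higher in D1 BACHD than in D1 WT (median log2 0.33) and 20 of 22 lower in D2 BACHD than in D2 WT (median log2 -0.60). Over all genes described, 2072 of 11018 combined a higher D1 and a lower D2 level, against 19 of these 22. Summed over the list, levels were 2879 CPM in D1 BACHD and 2723 in D2 BACHD, against 2371 CPM in D1 WT and 3941 in D2 WT. edgeR called 3 of the 22 higher in D2 and 2 higher in D1, beside 17% of all genes tested.

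Fos, a subunit of the AP-1 factor (ENSMUSG00000021250, chromosome 12), stood at 41.2 CPM in D2 BACHD and 48.9 in D1 BACHD, against 85.5 and 30.8 CPM in WT. Its ratio of 2.78-fold higher in D2 in WT became 1.19-fold higher in D1 in BACHD (log2 change of the gap -1.72, interval -1.85 to -1.59). Arc, a synaptic protein induced by activity, stood at 460.2 and 451.0 CPM in D2 and D1 BACHD and at 759.6 and 303.9 CPM in WT. The BACHD libraries met between the WT levels for both genes. Egr2, a zinc-finger factor, stood at 32.1 and 32.8 CPM in D2 and D1 BACHD and at 66.7 and 27.3 CPM in WT. Btg2, an antiproliferative cofactor, stood at 26.2 and 27.4 CPM in D2 and D1 BACHD and at 39.3 and 14.4 CPM in WT. Nr4a3, an orphan nuclear receptor, went further, from 1.14-fold higher in D2 in WT to 1.93-fold higher in D1 in BACHD. Nr4a2, its relative, was past the rule on the D1 side in both genotypes, at 6.44 and 0.187 CPM in D1 and D2 BACHD and at 1.36 and 0.092 CPM in WT, and its gap remained on 8 and 4 counts in the D2 libraries. Homer1, a postsynaptic scaffold, was also on the D1 side in both genotypes, 1.5-fold in BACHD and 1.09-fold in WT. The cortical markers were likewise highest in D1 BACHD, and their part in the levels of immediate early genes was not tested.

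**Figure D5:**
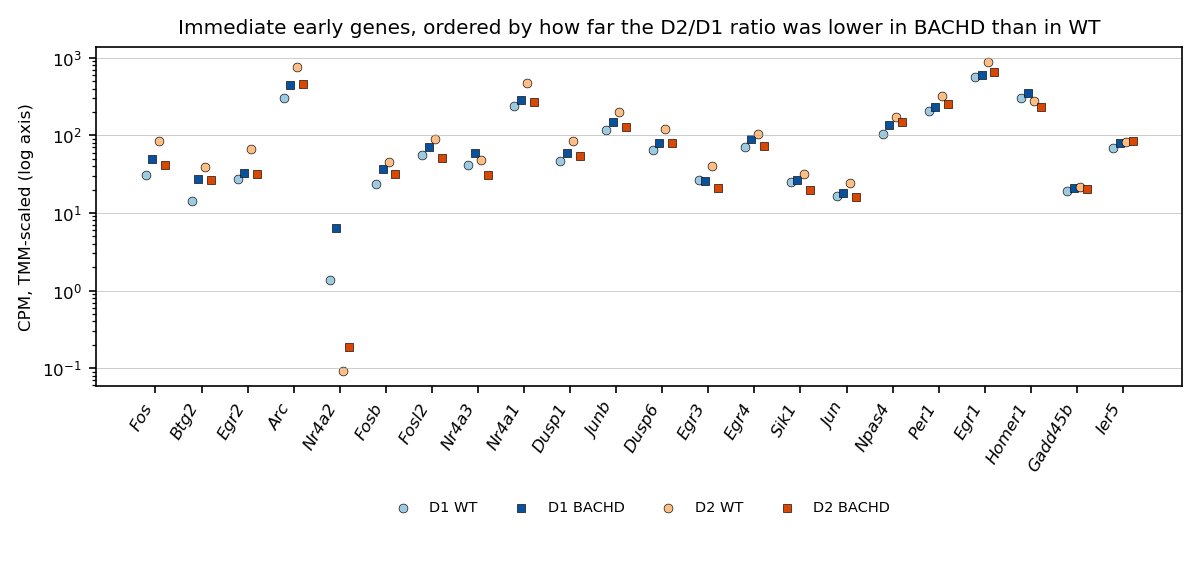
CPM (log axis) of the 22 described immediate early genes, 1 point per pooled library, ordered from the largest loss of the D2/D1 ratio in BACHD (left). For Fos, Btg2, Egr2 and Arc the D2 WT library is the highest of the 4 and the 2 BACHD libraries lie close together between the WT libraries.

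Promoters of these genes were searched because most of the genes moved together. Many immediate early genes are also known targets of CREB, a factor that binds the cyclic AMP response element. The core TGACG of that element was searched on both strands, in windows from 250 bases before to 50 bases after each start in RefSeq on GRCm38.p6. It was found for 13 of the 18 described immediate early genes with a window, and in 20.8% of all 32851 windows and for 23% of the 27025 genes of the table. The palindrome TGACGTCA, in which the core overlaps itself on the opposite strand, was found for 2 of the 18 genes. It was found for 2.03% of the genes of the table and in 1.79% of all windows. A match describes letters and is not a binding site. The 4 genes whose windows follow were chosen by hand and all hold the core, so they do not represent the list. Arc, whose gap also shrank, is not among them. The windows below are of 3 genes with a shrunken gap and of Nr4a2, whose gap remained, on the gene's strand, with the core in capitals. They are Fos at chr12:85473640-85473939 on the plus strand, Btg2 at chr1:134079106-134079405 on the minus strand, Egr2 at chr10:67537619-67537918 on the plus strand (1 of the gene's 5 windows, taken for its number of matches) and Nr4a2 at chr2:57123954-57124253 on the minus strand.
Fos: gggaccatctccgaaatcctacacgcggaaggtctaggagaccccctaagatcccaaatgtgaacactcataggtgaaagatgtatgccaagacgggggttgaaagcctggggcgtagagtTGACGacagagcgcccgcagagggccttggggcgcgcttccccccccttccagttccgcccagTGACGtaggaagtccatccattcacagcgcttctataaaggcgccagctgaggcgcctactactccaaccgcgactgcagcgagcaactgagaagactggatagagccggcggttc
Btg2: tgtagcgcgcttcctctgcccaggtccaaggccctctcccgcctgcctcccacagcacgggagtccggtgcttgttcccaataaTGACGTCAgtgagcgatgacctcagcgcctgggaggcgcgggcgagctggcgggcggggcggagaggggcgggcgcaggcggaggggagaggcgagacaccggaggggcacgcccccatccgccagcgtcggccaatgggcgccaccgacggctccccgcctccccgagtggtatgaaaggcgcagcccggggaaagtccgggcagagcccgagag
Egr2: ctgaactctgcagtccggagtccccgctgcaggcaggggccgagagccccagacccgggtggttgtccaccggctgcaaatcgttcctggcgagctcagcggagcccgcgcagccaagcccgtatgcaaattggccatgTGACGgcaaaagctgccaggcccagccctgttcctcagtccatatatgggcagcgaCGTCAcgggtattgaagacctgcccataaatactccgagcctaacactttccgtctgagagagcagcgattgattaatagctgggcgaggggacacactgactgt
Nr4a2: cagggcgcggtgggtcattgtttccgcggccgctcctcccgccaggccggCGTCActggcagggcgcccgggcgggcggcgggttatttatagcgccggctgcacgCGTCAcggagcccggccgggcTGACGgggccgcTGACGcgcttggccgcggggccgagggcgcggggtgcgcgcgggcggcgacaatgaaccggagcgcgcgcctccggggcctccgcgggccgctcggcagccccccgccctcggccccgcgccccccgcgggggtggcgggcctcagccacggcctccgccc
Fos and Egr2 each hold the core 2 times, Btg2 holds it as the full palindrome and Nr4a2 holds it 4 times.

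Genes of energy supply and protein handling moved by small amounts. All 13 mitochondrially encoded protein genes stood higher in D2 in both genotypes, with a median log2 D2/D1 of 0.28 in BACHD and 0.57 in WT, and edgeR called 13 of 13 higher in D2. None passed the size rule. For mt-Nd5, a subunit of complex I, the levels were 5219 CPM in D2 BACHD and 3965 in D1 BACHD, and 4814 and 2649 CPM in WT. The D1 BACHD library was nearer the D2 level than D1 WT was, and the whole mitochondrial share of counts in BACHD was 9.34% for D2 and 8.03% for D1, with 8.37% and 5.87% in WT. Nuclear oxidative phosphorylation genes had medians of 0.14 in BACHD and 0.05 in WT, with 29 and 21 of 32 above 0. Proteasome subunits had medians of 0.13 and 0.03, with 24 and 17 of 26 above 0. Over all genes described, 5619 of 11018 stood above 0 in BACHD and 5438 in WT. edgeR called 1 of the 32 and 1 of the 26, both higher in D2, beside 17% of all genes tested. In WT the number above 0 in these 2 lists depended on the scaling. Total counts left 12 of 32 and 7 of 26 above 0 in WT, with 26 of 32 and 21 of 26 in BACHD. Cytosolic chaperones had medians of -0.01 in BACHD and 0.10 in WT, and edgeR called 0 of the 15 tested, with 1 at an unadjusted p under 0.05, and DESeq2 and limma also called 0. Hspa5, a chaperone of the endoplasmic reticulum that the list also holds, stood at 180.9 CPM in D2 BACHD and 206.1 in D1 BACHD, against 253.1 and 237.0 CPM in WT.

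Striosome and matrix markers mark the compartments of the striatum. Of 10 striosome genes, 2 passed as higher in D1 in BACHD and in WT, and these were Pdyn and Tac1, which are also direct-pathway markers. Of 7 matrix genes, 0 passed in either genotype, a count near the 3.36% over all genes, with medians of 0.19 in BACHD and 0.11 in WT. Of 5 described neurotrophin and receptor genes, Gdnf and Gfra2 were past the rule as higher in D1 in BACHD. Over all genes described, 2.36% passed as higher in D1 in BACHD and 2.1% in WT. Gfra2, a receptor for a GDNF-family ligand, stood at 7.96 and 0.513 CPM in D1 and D2 BACHD and at 2.5 and 0.552 CPM in WT, another grown gap that lay in the D1 BACHD library.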

How the data were processed

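Estimated counts and FPKM values per Ensembl gene were used as the authors deposited them. The submitters' processing notes name CASAVA 1.8.2. Not given in the sources used here were an aligner, a counter and a build. Estimated counts were rounded to whole numbers and scaled by TMM (edgeR 4.0.16, R 4.3.3). Symbols and neighbouring genes were taken from GENCODE M21, and promoters from RefSeq.

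With 1 pooled library a group, each gap was described by a rule of size and an exact binomial counting interval, which covers counting error only. edgeR's quasi-likelihood test with Benjamini-Hochberg adjustment was fitted to the 13400 genes with at least 1 CPM in 2 libraries and was tested on simulated data. Alternatives were other scalings, filters and ratios, FPKM with a pseudocount of 0.1 or 1, limma 3.58.1, DESeq2 1.42.0 and leaving out each library. D1 WT in place of D1 BACHD was chosen after seeing the data.

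The genes named were the pathway markers, the 15 largest and 15 smallest D2/D1 ratios, the 10 largest grown and shrunken gaps each way, and up to 4 genes of each other list by ratio in BACHD. The members and lists were chosen with earlier results of these data known.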

Additional observations from a re-analysis of the deposited data

Results flagged for a closer look

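In 428 genes the D2/D1 ratio had counting intervals on opposite sides of 1 in the genotypes, and 4 of these were past the size rule in 1 genotype. With 1 library a group the difference between the genotypes was not tested for them. Fos had a log2 D2/D1 of -0.25 in BACHD and 1.47 in WT. Plk3, a stress-responsive kinase, had -1.06 in BACHD and 0.40 in WT, with 7.27 CPM in D1 BACHD and 3.5 in D2 BACHD. Shisa2 had -0.29 in BACHD and 1.22 in WT. Gm8325, annotated as a pseudogene so that its reads are uncertain, had 1.30 in BACHD and -0.56 in WT, with 5.13 CPM in D2 BACHD and 2.08 in D1 BACHD.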

How the results depend on the processing

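No paired analysis was possible because each group has 1 library, so the groups share a single replicate number. No named gene past the rule changed direction under the alternatives run. List medians near 0 could change sign. With total counts the WT median went from 0.05 to -0.03 for nuclear oxidative phosphorylation genes and from 0.03 to -0.04 for proteasome subunits. With FPKM + 0.1 or FPKM + 1 these 2 medians were -0.01 and -0.03. Total counts moved the median over all genes described to -0.059 in BACHD and -0.073 in WT, so other list medians near 0 can turn negative too. Among genes past the size rule in BACHD, 110 higher in D2 became 398 with no filter, 268 at a ratio of 1.5, 47 at a ratio of 4 and 71 with FPKM + 1. The 260 higher in D1 became 947 with no filter, 157 at 10 CPM, 498 at a ratio of 1.5 and 105 at a ratio of 4. In WT, the 132 higher in D2 became 467, 312 and 50 with no filter and at ratios of 1.5 and 4, and 81 with FPKM + 1. The 231 higher in D1 became 831, 482 and 79 at the same settings, 152 at 10 CPM and 148 with FPKM + 1. The 227 remaining gaps became 556 with no filter, 501 at a ratio of 1.5 and 84 at a ratio of 4. The 89 grown gaps became 299 with no filter, 46 at 10 CPM, 45 at a mean of 5 CPM, 57 at a ratio of 4, 52 with FPKM + 1 and 53 at a 2-fold change. The 30 shrunken gaps became 220 with no filter, 55 and 12 at ratios of 1.5 and 4, 15 with FPKM + 1 and 15 at a 2-fold change. With no filter 24 gaps were reversed. For edgeR, 913 genes higher in D2 and 1361 higher in D1 became 293 and 485 with no filter, 551 and 898 on cell type alone and 565 and 765 with DESeq2. Total-count scaling gave 2205 higher in D1. limma called 536 and 504 higher in D2 with FPKM + 0.1 and FPKM + 1. Leaving out each library gave 315 to 590 genes higher in D2 and 506 to 884 higher in D1, with the lowest counts without D2 WT. The causes were not tested. Of the 161 genes taken by the naming rule, the BACHD ratio kept its side of the rule for 158 with total counts, 161 with DESeq2 size factors, 156 with FPKM + 0.1 and 150 with FPKM + 1. DESeq2 size factors kept 225 of the 227 remaining, 88 of the 89 grown and 30 of the 30 shrunken genes, and total counts kept 220, 86 and 28. Genes with few counts in the lower library carry wide intervals, and no interval covers the spread between pools, which was not measured.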
